A study of Mus musculus with 15 samples.

Results

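In the kidney RNA of 15 mice, 106 of 11101 protein-coding genes lay higher in every mouse infused with angiotensin II (Ang II), with or without Qingda granule (QDG), than in every Control mouse, while the ranges of the Ang II and Ang II + QDG groups overlapped. These genes were chosen by exactly those values. A gene's level was the sum of its transcripts' FPKM (fragments per kilobase of transcript, scaled to the mapped total) over the annotated transcripts listed for all 15 mice, and the sum had to reach 1 FPKM in at least 5 mice. Because the choice used all 3 comparisons between the groups, the levels and ratios of the members are descriptions and carry no test. Where 3 values or ranges follow a gene without group names, they are for Control, Ang II and Ang II + QDG in that order.

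The mice were male C57BL/6 animals, 8 weeks of age when bought and given 1 week to adapt, and each of the 3 groups had 5. Control mice received saline from an implanted osmotic pump and water by gavage. Ang II mice received 500 ng/kg/min of Ang II from such a pump and water by gavage, and Ang II + QDG mice received the same infusion with QDG by gavage at 1.145 g/kg/day, all over 28 days. RNA came from kidney tissue that was not separated into cell types, so more cells of a type and more RNA per cell cannot be told apart. No group here received QDG without Ang II.

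Ang II is the effector peptide of the renin-angiotensin system. Through the AT1 receptor it constricts vessels, makes the kidney retain sodium and, in the glomerulus, acts on mesangial cells and podocytes. Long infusion in rodents is used as a model of hypertension with renal injury and matrix deposition. QDG is a herbal preparation given against hypertension. The rule used here picks genes whose values in these mice lay above those of Control with QDG as well as without it.

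Renin (Ren1), which Ang II infusion is known to lower, was examined as a check of the labels. Its level was 33.2 ± 3.79 FPKM in Control, 30.1 ± 8.97 in Ang II and 28.9 ± 12.8 with QDG added (SD, n = 5 each), and no fall was called in Ang II vs. Control (log2 difference −0.18, adjusted p = 0.718, limma). The known fall was thus not seen, and this gene could not serve as a check of the labels. The share of the summed FPKM that came from mitochondrial transcripts was 18.5% to 20.7% in Control, 15.4% to 16% in Ang II and 16.9% to 19.8% in Ang II + QDG, so the Control and Ang II mice did not overlap. The files of the Control mice hold another list of transcripts (41477) than those of the infused mice, and the file table and the infusion cannot be told apart. The summed erythroid markers were 545 to 1362 FPKM in Control, 1115 to 1943 in Ang II and 1557 to 2818 with QDG added, and their part in the results was not tested.

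Before the overlap of the infused groups was required, all 10 infused mice lay above all 5 Control mice in 109 protein-coding genes, which is 0.982% of those tested. All 10 lay below in 18 genes, or 0.162%. In the fit across 12366 genes of all types (limma on log2(FPKM + 1), adjusted p under 0.05), 4.95% of genes were called higher and 0.995% lower in Ang II vs. Control. This balance turned under 2 of the 3 scalings: 612 genes were higher and 123 lower with the values as deposited, 485 and 131 with nuclear total scaling, 214 and 291 with median scaling, and 223 and 273 with quantile normalization. Of the 106 members, 91 were called higher and 0 lower. In Ang II + QDG vs. Control, 0.097% of all genes were called higher and 0.0323% lower, with 9 members called higher and 0 lower. In Ang II + QDG vs. Ang II, 0.526% of all genes were called higher and 1.29% lower, and 0 members were called in either direction. The choice of the members used each of these contrasts, so nothing is read from their counts.

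The size of the set depended on how the mice were scaled and on 1 Control mouse. With the deposited values, 106 genes met the rule, and 84 did after scaling to the total of nuclear genes. Median scaling gave 56 genes and quantile normalization 50, of which 52 and 45 were among the 106. The genes with all infused mice below Control numbered 53 and 47 under those scalings against 18 with the values as deposited. In 32 of the 106, the rule held under all 3 scalings. Without Control 2, whose members' median was the highest of the Control mice, 337 genes met the rule. Leaving out any other single mouse gave 107 to 145 genes.

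**Figure D1:**
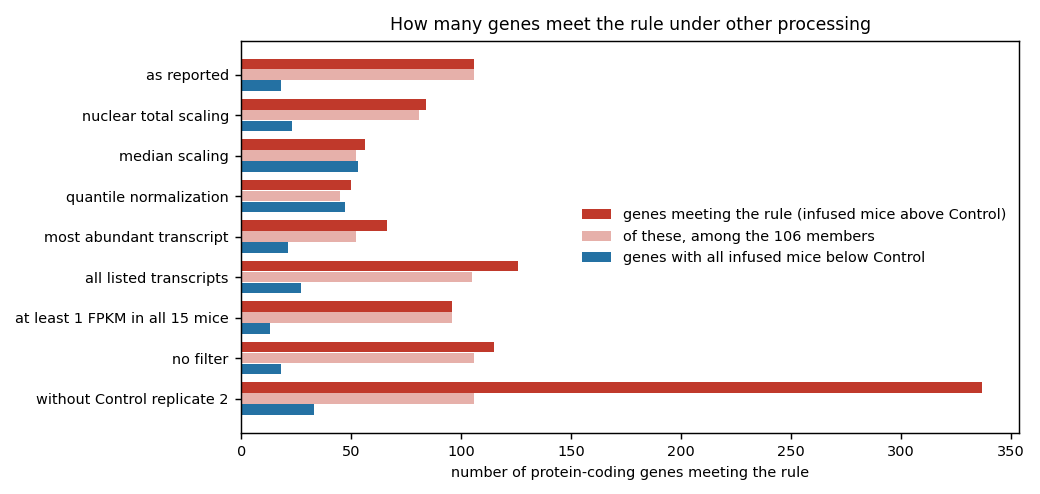
The horizontal axis is the number of protein-coding genes meeting the rule and each row is a processing setting. Red bars are genes higher in the infused mice, pale bars those of them that were among the 106, and blue bars the genes with all infused mice below Control. The red bar falls to 50 with quantile normalization and reaches 337 without Control 2.

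Most differences were modest. The median ratio of the Ang II mean to the Control mean was 1.43 over the members (1.12 to 12.7) and 1.07 over all protein-coding genes tested. For Ang II + QDG over Control the median ratio was 1.38 (1.07 to 9.84), against 1.05 over all genes tested. The Ang II mean was at least 1.5 times Control in 42 members (39.6%) and at least 2 times Control in 12 (11.3%), where the shares over all protein-coding genes tested were 8.66% and 2.37%. For the Ang II + QDG mean those numbers were 31 (29.2%) and 5 (4.72%), with 6.95% and 1.77% over all genes. The choice of the members used these ratios, so the shares are a description. The median ratio of Ang II + QDG to Ang II was 0.949 over the members (0.68 to 1.3) and 0.985 over all genes tested. The Ang II + QDG mean was below the Ang II mean in 79 of 106 members (74.5%) and in 53.7% of all protein-coding genes tested. Each mouse placed the members similarly. On the log2(FPKM + 1) scale, the median difference of the members from their Control means was 0.35 to 0.44 in the 5 Ang II mice, 0.32 to 0.43 in the 5 mice with QDG added and −0.06 to 0.08 in the Control mice. The medians over all genes tested were 0.04 to 0.13, 0.05 to 0.10 and −0.02 to 0.07 in the same order. Among Control mice, Control 2 was highest for the members (0.08) and for all genes (0.07).

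**Figure D2:**
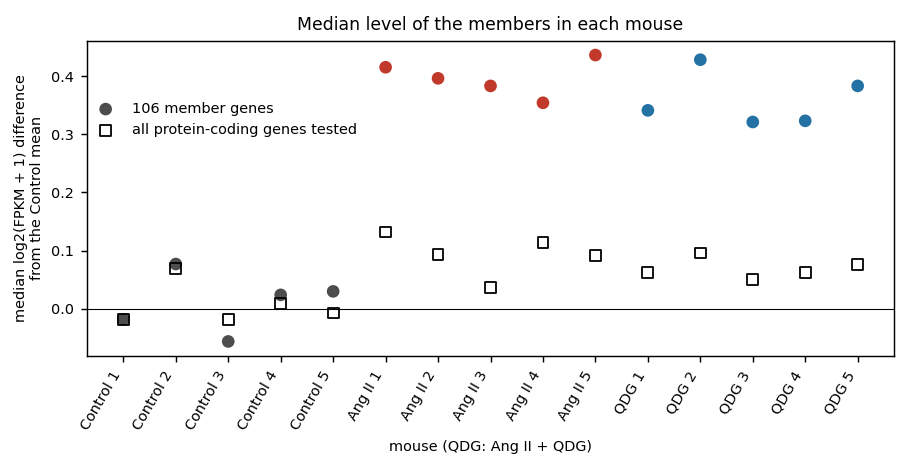
Each column is a mouse, and the vertical axis is the median log2(FPKM + 1) difference from the Control mean. Filled circles are the 106 members and open squares all protein-coding genes tested. The members sit between 0.32 and 0.44 in the 10 infused mice, which is fixed by their selection in sign but not in size, and the squares stay at or below 0.13.

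The boundary on the Control side was set most often by Control 2, which was the highest Control mouse in 42 members, and by Control 5 in 26. On the infused side, the lowest mouse belonged to the Ang II + QDG group in 69 members and to the Ang II group in 37. Ang II + QDG 4 alone was the lowest in 23. The gap between the highest Control and the lowest infused mouse ran from 0.002 to 0.32 on the log2(FPKM + 1) scale. Just inside it, Mxra7 had 3.14 FPKM in its highest Control and its lowest infused mouse, Sf3a2 had 7.19 and 7.20, and Sparc had 41.6 and 41.7. Just outside, Plaur had 1.56 on both sides, Antxr1 had 1.02 on both sides, and Ces2h was listed at 0 on both sides. A gene on the edge thus differs from an excluded gene by very little.

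The sequence shown here is the RefSeq promoter window, 250 bases before to 50 after the start, of Sema3g, Lfng and Itga9. These were the 3 members with the widest gaps among those with a single annotated transcript listed for all mice, so each sum holds 1 transcript. Assembled transcripts and those listed for only some mice were not counted, and reads shared with them were not examined. Capitals mark the GC box (GGGCGG on either strand). The windows lie at chr14:31217623-31217922, chr5:140607091-140607390 and chr9:118711442-118711741 on the + strand of GRCm38.p6. Those of Sema3g and Lfng span the annotated gene start. That of Itga9 lies inside the gene (118606690 to 118901003), downstream of its annotated start, so it is not comparable with the other windows. The windows of Sema3g and Lfng each hold 1 GC box and that of Itga9 holds 0.
Sema3g: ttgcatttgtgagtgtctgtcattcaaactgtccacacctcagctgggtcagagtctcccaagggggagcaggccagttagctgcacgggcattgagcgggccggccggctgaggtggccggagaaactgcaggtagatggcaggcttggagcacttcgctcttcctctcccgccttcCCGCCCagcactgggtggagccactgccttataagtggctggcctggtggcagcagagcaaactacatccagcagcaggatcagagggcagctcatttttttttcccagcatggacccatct
Lfng: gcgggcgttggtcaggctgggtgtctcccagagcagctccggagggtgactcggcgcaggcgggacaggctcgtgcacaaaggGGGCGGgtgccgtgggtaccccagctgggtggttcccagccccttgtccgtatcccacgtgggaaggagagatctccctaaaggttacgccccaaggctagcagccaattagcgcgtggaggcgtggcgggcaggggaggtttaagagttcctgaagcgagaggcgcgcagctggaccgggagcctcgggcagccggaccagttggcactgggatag
Itga9: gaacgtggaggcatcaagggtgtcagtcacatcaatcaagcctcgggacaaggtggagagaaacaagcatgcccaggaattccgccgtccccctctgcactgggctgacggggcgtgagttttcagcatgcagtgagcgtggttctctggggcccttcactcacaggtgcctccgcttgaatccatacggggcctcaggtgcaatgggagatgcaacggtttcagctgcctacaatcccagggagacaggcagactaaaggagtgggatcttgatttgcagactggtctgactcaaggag
Each of the 3 windows held the letters of an antioxidant response element (TGACNNNGC). The Lfng window further held the CCAAT box (CCAAT) and an E-box (CACGTG), whose letters include the hypoxia response core (ACGTG). The Itga9 window, which lies inside the gene, held that core and the AP-1 letters (TGACTCA). Over 113 windows of 86 members, 57.5% held a GC box, against 63% of the 11185 windows of the genes tested and 35.7% of all windows in the table. The antioxidant element was in 17.7% of member windows, 14.2% of windows of tested genes and 12.4% of all windows. Both strands were searched. Of 14 motifs, 3 were more frequent in member windows than in those of tested genes: the antioxidant element, the NF-kB letters and the steroid receptor half-site. The steroid receptor half-site (AGAACA) was in 13.3% of member windows against 12.7% of tested and 19% of all windows. The NF-kB letters (GGGNNNTCC) were in 25.7%, 22.4% and 17.8%, AP-1 (TGACTCA) in 3.54%, 3.68% and 5.2%, CRE (TGACGTCA) in 2.65%, 2.85% and 1.79%, and a TATA box (TATAAA) in 3.54%, 7.18% and 13.6%. An E-box was in 7.08%, 10% and 7.15%, a CCAAT box in 31.9%, 37.2% and 37.4%, and the hypoxia core in 23%, 25.5% and 19.6%. The ETS letters (CCGGAAGT) were in 4.42%, 8.14% and 3.89%, the NRF1 core (CGCATGCG) in 2.65%, 3.73% and 1.87%, YY1 (AAGATGGC) in 4.42%, 4.51% and 2.75%, and the interferon-stimulated response element in 0.885%, 2.96% and 3.44%. A match or its lack says nothing here on binding.

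The 6 members with vascular or glomerular roles had median log2 differences of 0.55 in both infused groups. Groups by role were drawn up after the members were known. Sema3g, a secreted semaphorin made by podocytes and arterial endothelium (chromosome 14, 31217860 to 31230352), had 13.9, 16.6, 16.5, 15.9 and 17 FPKM in the Control mice, 29, 36, 28.3, 28.5 and 35.2 in Ang II, and 25.7, 28.5, 27.3, 20.8 and 24.4 with QDG added. The lowest infused mouse, Ang II + QDG 4, was still above the highest Control mouse, and only 1 Ang II + QDG mouse reached the Ang II range. Its means were 1.97 and 1.59 times Control. The sum of the 4 podocyte markers used here was 59.7 to 72.2 FPKM in Control, 73.7 to 93.6 in Ang II and 81.5 to 98.4 with QDG added, so every infused mouse lay above Control in this sum as in Sema3g. Podxl made up most of this sum, so the sum rests largely on 1 gene. It was the 1 of the 4 called higher in Ang II vs. Control (48.2 ± 3.33 and 62.1 ± 6.84 FPKM, n = 5 each, adjusted p = 0.0277, limma). Nphs1 was not called (9.5 ± 0.873 and 11.0 ± 2.22 FPKM, adjusted p = 0.374, limma). The part of podocyte number in the Sema3g level was not tested.

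Cd300lg encodes nepmucin, a receptor of capillary endothelium. Its level was 10.9, 12.8, 10.5, 11.8 and 9.96 FPKM in Control, 16.4, 14.2, 15.2, 17.4 and 15.1 in Ang II, and 16.5, 16.4, 19.6, 16.5 and 16.3 with QDG added, with 1 Ang II + QDG mouse well above the other 4. An enzyme and a receptor of prostanoid signalling were both members. Ptgis, prostacyclin synthase, had 1.7, 1.75, 1.09, 1.65 and 1.13 FPKM in Control, 2.41, 2.23, 2.19, 2.39 and 2.05 in Ang II, and 2.6, 2.72, 2.51, 2.61 and 2.36 with QDG added. Tbxa2r, the thromboxane A2 receptor, had 1.22, 1.52, 1.56, 2.01 and 2.01 FPKM in Control, 3.3, 2.97, 2.12, 2.59 and 3.35 in Ang II, and 2.87, 2.79, 2.56, 3.31 and 2.9 with QDG added. Prostacyclin relaxes vessels and thromboxane constricts them, and both transcripts were low. Ptgis met the rule under median scaling and quantile normalization and missed it under nuclear total scaling. Rasip1, a regulator of endothelial tube formation, was at 2.65 to 4.5 FPKM in Control, 5.0 to 7.03 in Ang II and 4.77 to 5.82 with QDG added. None of the 8 endothelial markers of the list was a member. Their sum was 131 to 198 FPKM in Control, 162 to 195 in Ang II and 148 to 200 with QDG added, so the groups overlapped.

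**Figure D3:**
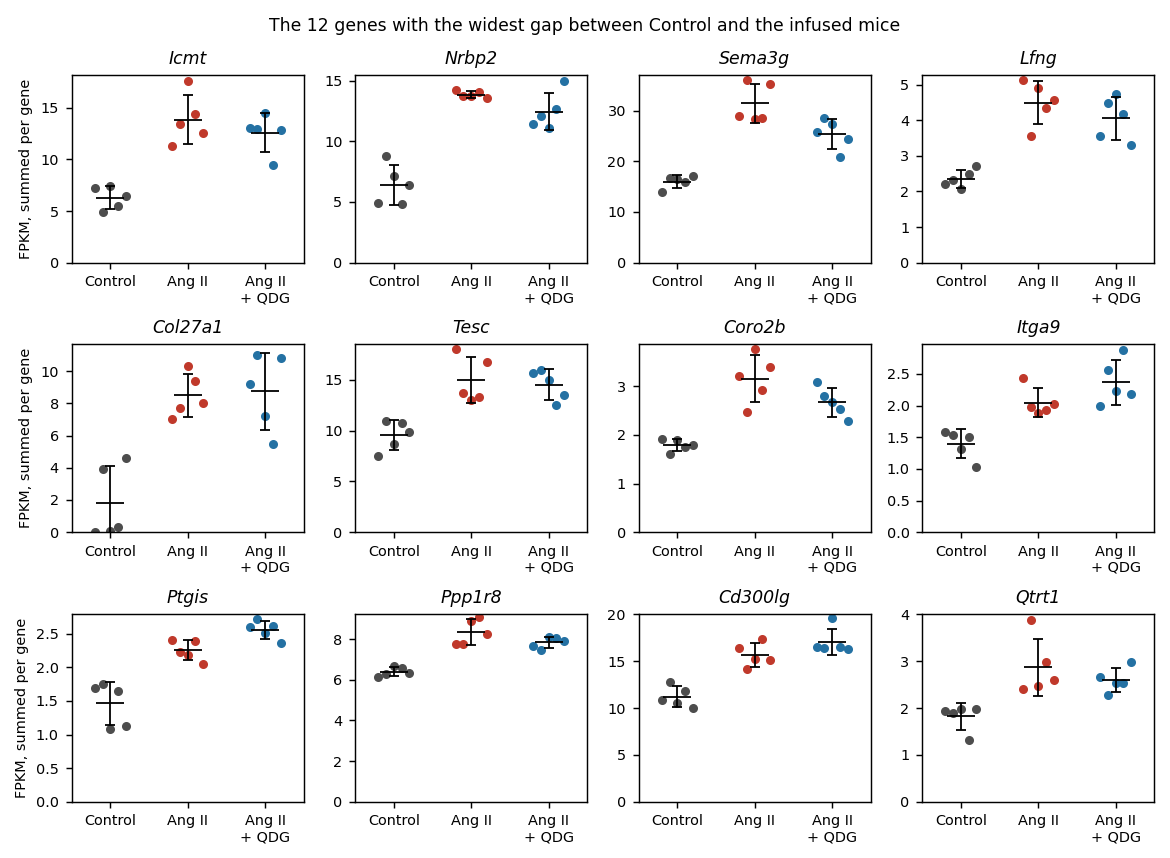
Each panel is a gene, with FPKM summed per gene on the vertical axis, a point per mouse, and the mean with its SD (n = 5) in black. In all 12 genes the lowest infused mouse lies above the highest Control mouse, as the rule requires, and the Ang II and Ang II + QDG points overlap. The mean with QDG added is above the Ang II mean in Col27a1, Itga9, Ptgis and Cd300lg and below it in the other 8.

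The 11 matrix, secreted and adhesion genes had the highest median log2 difference in Ang II of the role groups (0.56), with 0.49 in Ang II + QDG. Col27a1, a fibrillar collagen chain, varied most among the Control mice relative to its mean. It had 0.024, 3.95, 0.0744, 0.328 and 4.62 FPKM in Control, 7.05, 7.71, 10.3, 9.36 and 8.03 in Ang II, and 9.17, 11, 7.22, 5.5 and 10.8 with QDG added. Control 2 and Control 5 were far above the other 3 Control mice, and the lowest infused mouse, Ang II + QDG 4, was near them. The ratios of 4.73 and 4.87 to the Control mean of 1.8 ± 2.28 FPKM (SD, n = 5) therefore depend on which Control mice are averaged. Itga9, the α9 integrin chain, which binds tenascin and other matrix ligands, had 1.59, 1.53, 1.32, 1.51 and 1.03 FPKM in Control, 2.44, 1.97, 1.88, 1.93 and 2.02 in Ang II, and 1.99, 2.56, 2.23, 2.88 and 2.18 with QDG added. Its Ang II + QDG mean was 1.69 times Control against 1.46 for Ang II.

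Sparc, a collagen-binding matricellular protein, was the 1 member among 25 tested genes of the extracellular matrix and fibrosis list (4%). It had 38.7, 37.8, 31.7, 41.6 and 33.9 FPKM in Control, 63.6, 51, 45.9, 46.9 and 54.3 in Ang II, and 44, 52.9, 47.5, 52.1 and 41.7 with QDG added. The level in Ang II + QDG 5 was almost that of the highest Control mouse. Pcolce, which enhances procollagen processing, was at 26.2 to 46.6 FPKM in Control, 46.8 to 65.8 in Ang II and 48.2 to 58.4 with QDG added. Ltbp4, a latent TGF-β binding protein, was at 6.64 to 8.78, 11.1 to 17.5 and 9.55 to 11.4 FPKM. Mdk, the growth factor midkine, was at 14.2 to 19.5, 20.5 to 24.9 and 20.8 to 32 FPKM. Wfdc2, a secreted epithelial protein, was the most abundant gene of the group with 65, 75.4, 61.9, 77.4 and 61.2 FPKM in Control, 128, 125, 87.1, 102 and 118 in Ang II, and 104, 138, 89.4, 90.9 and 84.2 with QDG added. Of the 11 genes, 6 met the rule under all 3 scalings, which was the highest share of any role group apart from the vascular and glomerular one (4 of 6). The fibroblast marker list held 0 members among its 6 genes, and its sum was 18 to 32.3 FPKM in Control, 16.6 to 55.3 in Ang II and 23.5 to 48.8 with QDG added.

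The 15 cytoskeletal and motor members had medians of 0.49 and 0.39 in log2 difference. Myl9, the regulatory light chain of smooth muscle and non-muscle myosin, had 23.9, 27.4, 24.7, 31.8 and 23.4 FPKM in Control, 53.6, 40, 33.9, 49.4 and 44.1 in Ang II, and 38, 43.2, 41.3, 35.9 and 35.5 with QDG added. Flna, filamin A, an actin crosslinker, had 10.6, 12.8, 9.57, 11.7 and 8.42 FPKM in Control, 23.3, 20.1, 17.6, 19.9 and 22.8 in Ang II, and 14.3, 18.1, 18.4, 13.5 and 15.6 with QDG added. In Myl9 all mice with QDG added lay inside the Ang II range, and in Flna 3 of the 5 lay below it. Coro2b, a coronin found in podocytes, was at 1.6 to 1.92 FPKM in Control, 2.48 to 3.76 in Ang II and 2.28 to 3.08 with QDG added. Fmnl3, a formin, was at 0.97 to 4.04, 4.22 to 7.17 and 5.24 to 6.75 FPKM, with Control 1 far above the other 4 Control mice. Dlc1, an activator of GTP hydrolysis by small GTPases, was at 4.29 to 5.42, 5.54 to 7.01 and 6.06 to 7.29 FPKM, and Actn1, the actin crosslinker α-actinin 1, was at 6.19 to 7.42, 8.59 to 11.9 and 7.47 to 9.62 FPKM. The mean with QDG was the lower of the infused groups in 13 of the 15, beside 74.5% of all members and 53.7% of all protein-coding genes tested. Hspb7, a small heat shock protein known from heart muscle, had means of 1.24, 2.23 and 2.16 FPKM. Among the 7 smooth muscle and pericyte markers, 0 were members and 2 were called higher in Ang II vs. Control, where 4.95% of all genes were. These were Tagln (20.3 ± 2.02 and 31.6 ± 8.38 FPKM, n = 5 each, adjusted p = 0.0326, limma) and Pdgfrb (0.634 ± 0.634 and 2.35 ± 0.225 FPKM, n = 5 each, adjusted p = 0.0468, limma). The sum of the 7 was 55.2 to 70.6 FPKM in Control, 58.7 to 123 in Ang II and 74.7 to 87.9 with QDG added. Their part in the levels of Myl9 and Flna was not tested.

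**Figure D4:**
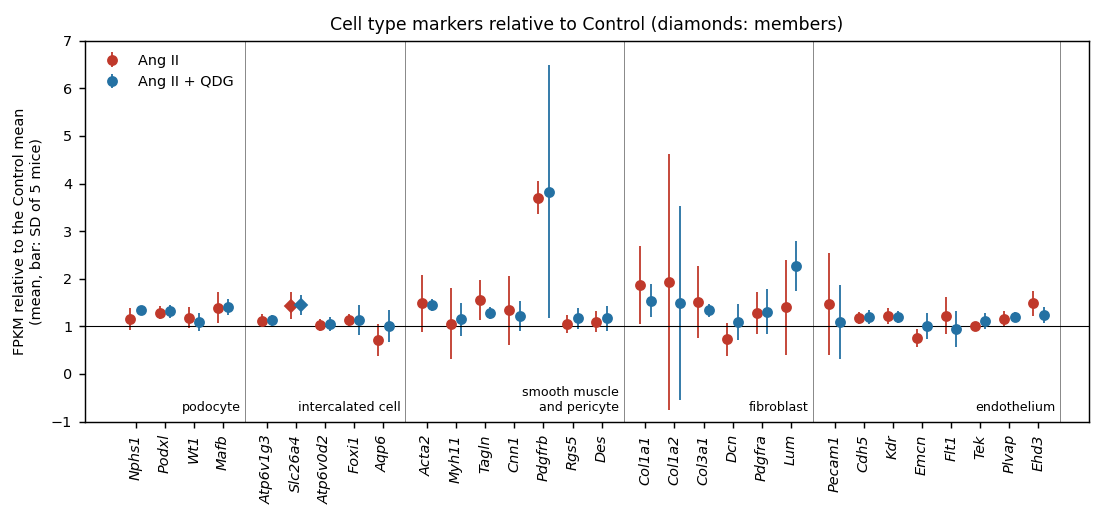
The vertical axis is the FPKM of each marker relative to its Control mean, and points are group means with the SD of 5 mice. Vertical lines divide the cell type lists and diamonds are members. Slc26a4 stands at 1.43 in Ang II and 1.46 with QDG added, and the other intercalated cell markers lie closer to the Control level.

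Signalling enzymes, receptors and their regulators were the biggest group, with 17 members. Icmt methylates the prenylated end of Ras and other proteins (chromosome 4, 152297227 to 152307121). It had the widest gap of all members, with 7.25, 4.86, 7.4, 5.51 and 6.47 FPKM in Control, 11.3, 13.4, 17.6, 14.4 and 12.6 in Ang II, and 13.1, 13, 14.5, 9.46 and 12.9 with QDG added. The means were 2.2 and 2.0 times Control. Nrbp2, a pseudokinase, was close behind, with 4.92, 8.78, 7.14, 4.84 and 6.4 FPKM in Control, 14.2, 13.7, 13.7, 14.1 and 13.6 in Ang II, and 11.4, 12.1, 11.1, 12.7 and 15 with QDG added. The 5 Ang II mice were nearly equal, while the Control mice varied more. Lfng, a fringe glycosyltransferase that modifies Notch receptors, had 2.2, 2.31, 2.08, 2.5 and 2.72 FPKM in Control, 5.13, 3.55, 4.9, 4.34 and 4.56 in Ang II, and 3.56, 4.49, 4.74, 4.17 and 3.31 with QDG added. Jag2, a Notch ligand, was at 0.968 to 1.33 FPKM in Control, 1.53 to 2.43 in Ang II and 1.56 to 2.28 with QDG added. Tle2, a corepressor that acts with Hes proteins and other repressors, was at 0.683 to 1.32, 1.67 to 3 and 1.4 to 2.34 FPKM. Lfng, Jag2 and Tle2 each met the rule under all 3 scalings. Tesc, a calcium-binding protein, was at 7.46 to 10.9, 13 to 18 and 12.5 to 16 FPKM.

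Both kinds of subunit of protein kinase A, which cyclic AMP activates, were represented. Prkar1a, the type Iα regulatory subunit of protein kinase A, had 75.9, 75.3, 70, 70.8 and 74.2 FPKM in Control, 85.7, 80.7, 79.3, 80.7 and 85.8 in Ang II, and 79.8, 76.8, 79.1, 79.3 and 76 with QDG added. Its Ang II + QDG mean was 1.07 times Control, the lowest ratio of the set. Prkaca, the α catalytic subunit of that kinase, was at 26.6 to 31.6 FPKM in Control, 31.8 to 38.6 in Ang II and 33.1 to 38.2 with QDG added. Pip4k2c, a phosphoinositide kinase, was at 48.3 to 56.1, 57.2 to 63.5 and 56.3 to 63.9 FPKM. Prkar1a and Pip4k2c missed the rule under each of the 3 scalings, and Prkaca met it under nuclear total scaling only.

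**Figure D5:**
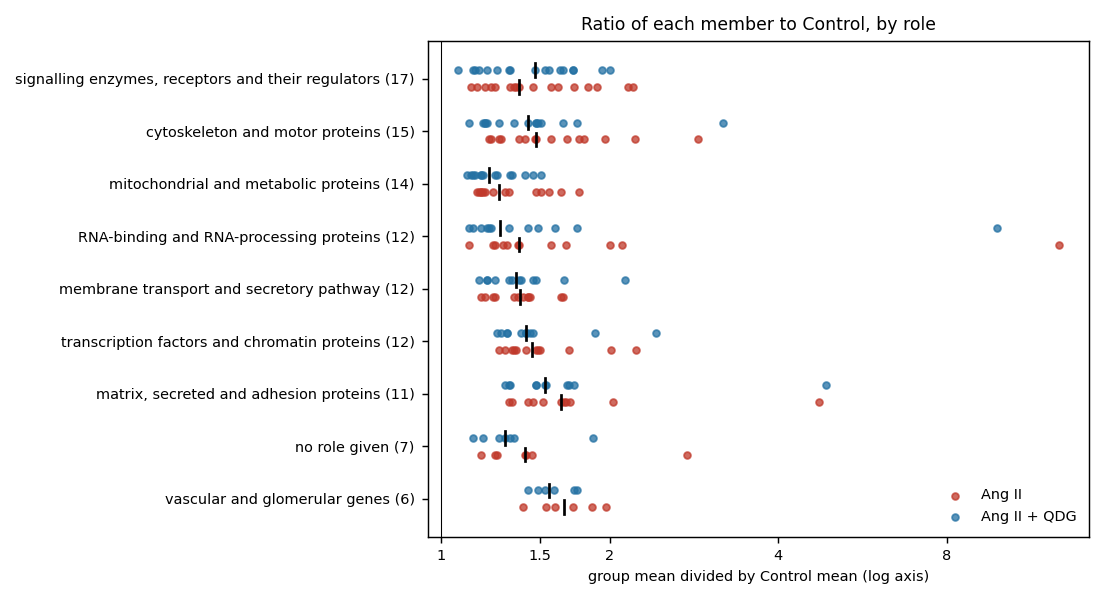
The horizontal axis, which is logarithmic, is the ratio of a group mean to the Control mean, each point is a member and each black tick the median of its role group. Red is Ang II and blue Ang II + QDG. Most members lie below 2, Srrm2 is the point at 12.7 and 9.84, and Col27a1 the one at 4.73 and 4.87.

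The 12 members for RNA-binding and RNA-processing proteins included the largest ratio of the set. Srrm2, a component of nuclear speckles, had 1.27, 2.46, 3.06, 1.11 and 1.13 FPKM in Control, 10.5, 26.9, 27.3, 19.3 and 30.4 in Ang II, and 11.6, 11.7, 27.7, 3.34 and 34.6 with QDG added. The mice with QDG added spread most, and the lowest of them was near the highest Control mouse. Its transcript ENSMUST00000190568, annotated as a retained intron, held 94.7% of the difference between the infused and Control means, at 0.0435 to 1.12 FPKM in Control, 8.03 to 25.4 in Ang II and 2.58 to 31.4 with QDG added. Of 79 tested splicing factors, 3 were members (3.8%), where members are 0.955% of all protein-coding genes tested. Hnrnpk, an abundant RNA-binding protein, had 61.3, 62.6, 54, 63.2 and 57.9 FPKM in Control, 76.4, 74.1, 76.9, 70.9 and 75.1 in Ang II, and 68.6, 71.1, 68.8, 66.7 and 64.3 with QDG added. All but 1 of the Ang II + QDG mice lay below the Ang II range. Hnrnpl, its relative, was at 40.8 to 54.6, 56.3 to 64.1 and 55 to 62.8 FPKM, and Sf3a2, a subunit of the SF3a complex, was at 5.31 to 7.19, 7.96 to 9.38 and 7.2 to 8.52 FPKM. Ppp1r8, a nuclear inhibitor of protein phosphatase 1 that binds splicing factors, was at 6.16 to 6.67, 7.74 to 9.11 and 7.48 to 8.12 FPKM. Qtrt1, the catalytic subunit of the enzyme that places queuine in tRNA, was at 1.32 to 1.99, 2.4 to 3.89 and 2.29 to 2.99 FPKM. The mean with QDG was below that with Ang II alone in 11 of these 12 genes, beside 74.5% of all members and 53.7% of all protein-coding genes tested.

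Among 12 transcription factors and chromatin proteins, Xbp1, the transcription factor of the unfolded protein response, had 21.3, 19.9, 23.1, 22.6 and 18.3 FPKM in Control, 26.8, 27.6, 25.9, 28.3 and 27.9 in Ang II, and 24.5, 28.2, 31.7, 29.4 and 35.6 with QDG added. Xbp1 was the 1 member among 22 genes of the endoplasmic reticulum chaperone and stress list (4.55%). The sum of that list was 1337 to 1655 FPKM in Control, 1624 to 1869 in Ang II and 1405 to 1453 with QDG added. In Ang II + QDG vs. Ang II, 3 genes of the list were called lower and 0 higher, where 1.29% and 0.526% of all genes were. In Xbp1 the Ang II + QDG mean was the higher of the infused groups. Esrrg, a nuclear receptor that controls mitochondrial genes in the renal tubule, was among the 3 members highest in Ang II + QDG relative to Ang II. Its level was 5.41, 4.55, 3.5, 4.39 and 0.815 FPKM in Control, 7.85, 9.66, 6.08, 5.53 and 8.36 in Ang II, and 9.01, 9.17, 7.8, 7.44 and 11.8 with QDG added, with Control 5 far below its group. Of 287 zinc finger genes, Zfp691 and Zbtb10 were members (0.697%). Zfp691 was at 2.35 to 3.2, 3.77 to 4.82 and 3.38 to 3.89 FPKM, and Zbtb10 at 1.61 to 2.18, 2.33 to 2.73 and 2.43 to 3.43. Tle2 was the 1 gene of these 12 to hold under all 3 scalings.

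The 14 mitochondrial and metabolic members had the smallest medians among the role groups with a role, 0.33 and 0.26 (log2 difference). Slc25a4, the mitochondrial exchanger of ADP and ATP, was the most abundant member, with 115, 116, 129, 133 and 135 FPKM in Control, 150, 155, 150, 158 and 166 in Ang II, and 163, 150, 139, 151 and 144 with QDG added. C1qbp, a matrix protein of mitochondria, had 74.4, 83, 80.6, 81.3 and 80.3 FPKM in Control, 92.3, 91.7, 95.4, 97.1 and 96.1 in Ang II, and 86.9, 91.7, 85.5, 89.4 and 88.4 with QDG added. In C1qbp the ranges of the infused groups met near 91.7 FPKM. Cyb5r3, cytochrome b5 reductase, was at 59.9 to 68.3, 73.3 to 80 and 72.1 to 76.8 FPKM. Cox7a1, the muscle form of a cytochrome c oxidase subunit, was at 12.3 to 14.9, 15 to 24.8 and 16.7 to 22.2 FPKM and was the 1 member of 88 nuclear oxidative phosphorylation subunits (1.14%), near the 0.955% over all protein-coding genes tested. Mrpl23 and Mrpl47 were the members among 78 mitochondrial ribosomal proteins (2.56%), at 17.3 to 19.1 and 5.16 to 5.52 FPKM in Control, 20.4 to 25.2 and 5.96 to 6.66 in Ang II, and 20.6 to 23.1 and 5.87 to 6.71 with QDG added. Slc25a24, a calcium-regulated carrier of ATP, was at 1.19 to 1.66, 1.97 to 2.76 and 1.7 to 2.17 FPKM.

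Among 12 members for membrane transport and the secretory pathway, Slc26a4 encodes pendrin, the chloride and bicarbonate exchanger of type B intercalated cells. It had 27.2, 23.7, 26.4, 22.8 and 23.2 FPKM in Control, 29.6, 46.7, 32, 31 and 37.5 in Ang II, and 32.7, 44.5, 33.8, 32.2 and 36.5 with QDG added. The infused groups had nearly the same range, with means of 35.3 ± 7.0 and 35.9 ± 5.09 FPKM (SD, n = 5 each), 1.43 and 1.46 times the Control mean of 24.7 ± 2.01. Slc26a4 was the 1 member of 5 tested intercalated cell markers. Of the other 4, Atp6v1g3 had means of 17.3, 19.3 and 19.5 FPKM, Atp6v0d2 12.6, 13 and 13.3, Foxi1 10.5, 11.9 and 12, and Aqp6 12.1, 8.57 and 12.1, and 0 of these 4 were called in Ang II vs. Control. Slc26a4 met the rule under nuclear total scaling and missed it under median scaling and quantile normalization. The nucleotide-sugar carrier Slc35d1 was at 12.1 to 14.6, 14.9 to 18.1 and 15.3 to 18.4 FPKM, and with Slc26a4, Slc25a4 and Slc25a24 it made 4 members of 248 solute carriers (1.61%). Selenom, a selenoprotein of the endoplasmic reticulum, had 22.9, 26.3, 20.2, 21.4 and 21.1 FPKM in Control, 30.4, 34.5, 27.7, 33 and 27.9 in Ang II, and 36.6, 36.2, 32.8, 43.5 and 36.2 with QDG added. It and Pcsk4, a proprotein convertase at 1.24 to 1.88, 2.14 to 2.89 and 2.47 to 3.9 FPKM, were with Esrrg the members that lay highest in Ang II + QDG relative to Ang II.

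At the other end, Srrm2, Mtss1 and Lrrc61 had the lowest Ang II + QDG levels relative to Ang II. Mtss1, an actin and membrane binding protein, had 6.39, 10.5, 10.3, 10.7 and 11.4 FPKM in Control, 17.4, 22.4, 28.4, 14.4 and 26.5 in Ang II, and 18, 15.4, 11.7, 12.7 and 23.6 with QDG added. Lrrc61 had 1.84, 2.92, 2.19, 2.11 and 2.64 FPKM in Control, 4.5, 3.1, 4.91, 11.3 and 8.39 in Ang II, and 4.44, 3.07, 3.7, 4.13 and 6.53 with QDG added. In both genes the Ang II + QDG mice reached down almost to the highest Control mouse.

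The levels of many members rested on transcripts that differed from each other. The 106 genes had 279 transcripts listed for all mice, 201 of them with at least 1 FPKM in 5 mice, and 57 of the 201 (28.4%) lay above Control in every infused mouse on their own, beside 0.51% of 20987 transcripts of all genes. The choice of the members used the same values, so nothing is read from this. In 55 members at least 1 transcript did so, which the choice of the members fixes for the 37 with a single listed transcript. The transcript with the largest difference was annotated as not protein-coding in 13 members (12.3%), 10 of them retained introns, against 15.2% of the 7456 protein-coding genes whose sum was higher in the infused mice. In Icmt, 83.1% of the difference came from ENSMUST00000151372, annotated as a target of nonsense-mediated decay, at 3.81 to 5.78 FPKM in Control, 9.29 to 16 in Ang II and 7.46 to 11.7 with QDG added. In Gtpbp2 a transcript of that class was listed at 0 in all Control and Ang II + QDG mice and at 0 to 7.44 FPKM in Ang II. When only the most abundant transcript of each gene was used, 66 genes met the rule, 52 of them among the 106.

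The members were richer in G and C than the genes tested. The median GC content of the most abundant transcript was 54.5% in the members and 50.6% in all protein-coding genes tested, while the median transcript lengths were alike (2717 and 2743 bases). With the tested genes divided by GC content into 3 bins of equal size, 60 members were in the highest bin (53.7% to 74.7% GC), 29 in the middle bin and 17 in the lowest (32.1% to 47.4%), which is 1.62%, 0.784% and 0.459% of the genes of each bin. The median log2 difference of Ang II from Control over all genes of these bins was 0.16, 0.08 and 0.02, and that of Ang II + QDG from Control 0.10, 0.06 and 0.03. GC content thus moved with the difference over all genes as well as with membership, and its part in the members' levels was not tested. Of the 32 members that held under all 3 scalings, 21 were in the highest bin. Members lay on every autosome tested except chromosome 19 (0 of 405 genes), with 14 on chromosome 11 and 13 on chromosome 7. Llgl1 and Mief2 on chromosome 11 were the nearest members, 14212 bases apart. An annotated gene on the other strand overlapped 49 members (46.2%) and 43.9% of all tested genes, among them Icmt, Srrm2 and Ptgis, and reads from such partners cannot be told apart if the counting ignored strand, which is not given in the sources used here.

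Across the 41 marker lists and gene families examined, and over the genes reported here, 12 held at least 1 member, 18 members in all. Proximal tubule (12 genes), thick ascending limb, distal convoluted tubule, principal cell and macrophage markers held 0 members, as did the lists of renin-angiotensin system, tubular injury, inflammation, redox, immediate early and sodium transport genes. Members are 0.955% of all protein-coding genes tested, so lists this short would mostly hold 0 in any case. Nothing is read from the lack of members here or in the marker lists above. The summed proximal tubule markers were 11871 to 22309 FPKM in Control, 10090 to 14550 in Ang II and 13625 to 17909 with QDG added, and the macrophage markers 146 to 238, 117 to 165 and 116 to 358 FPKM. No T cell or B cell marker passed the filter. The deviations of 2 members from their group means over the 15 mice had a median Pearson's r of 0.086, and 0.022 for pairs of all genes tested. Without Control 2 these medians were 0.057 and 0.015. Of the pairs, 60.2% of those of members and 52.7% of those of all genes had a positive r, and 56.6% and 51.7% without Control 2. The points share a library per mouse.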

How the data were processed

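RNA from the kidneys of 15 mice was sequenced, with ribosomal RNA depleted and an RNA integrity number of at least 7. The paper's methods also name a kit for isolating poly(A) mRNA, used after the depletion. The authors assembled and quantified transcripts and deposited a value for each in every mouse, taken here as FPKM (fragments per kilobase, scaled to the mapped total). The unit was inferred from the values: multiplied by GENCODE M21 transcript length, 98.5% to 98.7% of low values were integer steps of a mouse-specific size (tolerance 0.05). The steps imply 68930000 to 81320000 reads or fragments per mouse, which limits the precision of low genes. FPKM is relative to each mouse's total, so a shift in abundant transcripts moves all others. The submitters' processing notes name mm10 and limma. Aligner, assembler and counter are not given in the sources used here.

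Of 43733 transcripts, 40054 were listed for all mice. Of these, 28863 matched GENCODE M21 (GRCm38) and were summed per gene, and 11141 assembled transcripts were left out. Filter: a sum of at least 1 FPKM in 5 mice (12366 genes, 11101 protein-coding). No 2 mice of a group were near-identical. Means are of 5 mice with the SD. The fit across genes was limma 3.58.1 (R 4.3.3) with a trend on log2(FPKM + 1), 15 mice in 1 model, 12 residual degrees of freedom and Benjamini-Hochberg adjustment over all genes, tested on simulated data. The pseudocount of 1 makes log2 differences of low genes smaller. The labels do not say whether mice of a group were housed or processed together. The members, the lists and the roles were chosen with earlier results of these data known. Genes described by name are the 12 with the widest gap, the 8 most abundant and the 3 on each side of the edge. The 3 highest and 3 lowest in Ang II + QDG relative to Ang II, by difference in log2(FPKM + 1), are described too. So are the members of the lists, except Trim41 and Ccdc114. Other members named as examples of a role were chosen after their values were seen. Gene models without a proper symbol were counted and not described. Some results are not reported here. Alternatives were 3 scalings, 2 filters, other transcript sums, pseudocounts of 0.1 and 0.01 and each mouse left out. Promoter windows were taken from RefSeq (GRCm38.p6), where 86 members matched by symbol. Python 3.11.15, pandas 2.3.3, numpy 2.4.6 and matplotlib 3.10.9 were used.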

Additional observations from a re-analysis of the deposited data

Results flagged for a closer look

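In 14 of 174 groups of 5 mice, examined over 58 members that include all those described, 1 mouse lay far from the other 4, by a gap of more than 0.71 of the group's range. Chance flags about 1 in 20 groups, here 8.7. Cd300lg was at 19.6 FPKM in Ang II + QDG 3 and at 16.3 to 16.5 in the other 4. Cyb5r3 was at 59.9 FPKM in Control 5 (others 66.2 to 68.3), Mtss1 at 6.39 in Control 1 (10.3 to 11.4) and Qtrt1 at 1.32 in Control 4 (1.9 to 1.99). These 3 Control mice lay below their group. Above theirs lay Control 2 in Actn1 (7.42 FPKM, others 6.19 to 6.42) and Dlc1 (5.42, others 4.29 to 4.37) and Control 1 in Fmnl3 (4.04, others 0.97 to 1.72). Ang II 1 lay above its group in 5 genes, with Actn1 at 11.9 FPKM (others 8.59 to 9.33), Rasip1 at 7.03 (5.0 to 5.46), Itga9 at 2.44 FPKM (others 1.88 to 2.02), Slc25a24 at 2.76 (1.97 to 2.14) and Tmem35a at 4.98 (4.32 to 4.48). Zbtb10 was at 3.43 FPKM in Ang II + QDG 5 (2.43 to 2.72). Prkaca was at 31.8 FPKM in Ang II 3 (37.2 to 38.6).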

How the results depend on the processing

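Genes meeting the rule numbered 106, and 56 under median scaling, 50 under quantile normalization and 66 with the most abundant transcript. Leaving out 1 mouse gave 107 to 337, the latter without Control 2. Genes called in Ang II vs. Control (612 higher, 123 lower) were 214 and 291 under median scaling, 223 and 273 under quantile normalization, 269 higher with the most abundant transcript, and 271 to 687 and 67 to 114 without 1 mouse. In Ang II + QDG vs. Control (12 higher, 4 lower), the lower calls were 12 under median scaling, 7 under quantile normalization and 9 under nuclear total scaling. Requiring 1 FPKM in all 15 mice gave 20 and 8, all listed transcripts 61 and 19, the most abundant transcript 4 and 2, and leaving out 1 mouse 0 to 91 (91 without Control 2, 0 without Control 4) and 0 to 19. In Ang II + QDG vs. Ang II (65 higher, 159 lower), median scaling gave 99 lower, quantile normalization 98 and 95, and leaving out 1 mouse 7 to 62 and 46 to 199. The cause was not tested. Of 2886 values of 58 members under an alternative, 2770 moved by less than the spread between mice, 114 by more, and 2 reversed, both with the most abundant transcript: Zfp691 in Ang II + QDG vs. Control (−0.38, standard error 0.31) and Gtpbp2 in Ang II vs. Control (−0.73, standard error 0.37). No paired analysis was possible because the labels tie no mouse of a group to a mouse of another by number, litter or batch, and the numbers used here only name the mice.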
